A study of Mus musculus with 13 samples.

Results

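The genes described here encode the eukaryotic translation initiation factors, the eIF proteins. They were taken by symbol: every mouse symbol that begins with Eif followed by a digit from 1 to 6 was kept, the 4 Eif2ak kinases and names with -ps being left out, and a mean of at least 0 log2 CPM over the 13 libraries was required. Of the 24062 rows of the table, 51 had such a name and 48 passed the level filter. The other 3, Eif3j1, Eif3j2 and Eif4e1b, had 0 reads in every library, which allows up to 0.235 to 0.383 CPM (3 reads, counting error only). The coding sequences of Eif3j1 and Eif3j2 are 99.2% identical, so reads from either could fit both.

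The series measured RNA in LK cells (lineage-negative, Sca-1-negative and c-kit-positive marrow cells, mostly progenitors committed to the myeloid, erythroid or megakaryocyte lines) of mouse bone marrow chimeras. Its groups were WT (TIFAB+/+;miR-146a+/+, 3 libraries), TIFAB_KO (TIFAB-/-;miR-146a+/+, 3 libraries), miR-146a_KO (TIFAB+/+;miR-146a-/-, 3 libraries) and dKO (TIFAB-/-;miR-146a-/-, 4 libraries). All 4 groups were marrow grafts in syngeneic Boy/J recipients, which had received a lethal split dose of radiation, 7.0 and then 4.75 Gy with 3 h between, and the labels give an age of 2 to 5 months. The comparison among the 4 groups asks how each deletion, and both together, relate to the RNA levels of the initiation machinery. The labels give the deletions as homozygous and name no gate that parts donor from remaining recipient cells. The protocol states 3 mice per group, but dKO has 4 libraries, and no label ties a library to a mouse of its own. The p-values therefore measure the spread between libraries, which may be technical.

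Initiation starts when eIF2, bound to GTP, brings the initiator methionine tRNA to the small ribosomal subunit together with eIF1, eIF1A, eIF3 and eIF5. The eIF4 proteins bind the cap of the mRNA, unwind its leader and recruit this complex, which scans to a start codon, after which eIF5B joins the large subunit. Control is known to act mainly on eIF2, through phosphorylation and its exchange factor eIF2B, and on cap binding by eIF4E, which the eIF4E-binding proteins block until mTORC1 phosphorylates them. Blood progenitors make large amounts of protein as they divide, and TIFAB and miR-146a are both known as restraints on TRAF6 signalling in these cells.

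Total reads per library ranged from 7.83 to 12.8 M, and the 48 genes took 1.32 to 1.43% of them. Tifab had log2 CPM of 5.34, 5.63 and 5.31 (WT), 3.17, 3.56 and 3.69 (TIFAB_KO), 6.11, 6.15 and 6.01 (miR-146a_KO) and 2.64, 2.10, 1.72 and 3.46 (dKO), libraries standing in the order of their replicate numbers here and throughout. Both Tifab-null groups lay below both other groups, and dKO replicate 4 had the highest Tifab of its group. The labels do not tell which part of Tifab was deleted, and the row of the miR-146a gene had 0 reads in all 13 libraries, so it checks nothing. TIFAB_KO replicate 3 and dKO replicate 3 were the libraries least like the others, with a median correlation of 0.947 and 0.951, and the 45S pre-rRNA row Rn45s took 3.85 to 10.7% of reads, most in TIFAB_KO replicate 3. Markers of the sort were present: Kit was at 8.08 to 8.84 log2 CPM and the 8 granulocyte-monocyte progenitor genes summed to 7640 to 13300 CPM in WT, 15600 to 17500 in TIFAB_KO, 10400 to 13400 in miR-146a_KO and 8500 to 13000 in dKO. The 10 erythroid genes summed to 1500 to 1940 CPM in WT, 869 to 1140 in TIFAB_KO, 1010 to 1340 in miR-146a_KO and 977 to 1700 in dKO, with Hba-a1, Hba-a2, Hbb-bs and Hbb-bt at 0 in all libraries. Most of each sum was Car1, at 10.43 to 10.79 log2 CPM in WT, 9.58 to 10 in TIFAB_KO, 9.83 to 10.2 in miR-146a_KO and 9.74 to 10.57 in dKO. No other erythroid gene exceeded 7.03 log2 CPM (Klf1 in dKO replicate 2), and the group ranges of Klf1 overlapped. The erythroid sums therefore describe mainly Car1. The 5 megakaryocyte genes summed to 495 to 595, 456 to 527, 284 to 395 and 225 to 396 CPM in the same order of groups, and the 7 macrophage genes in the file to 9.58 to 24.3, 16.4 to 83.8, 29.2 to 40.4 and 33.7 to 89.4 CPM, none of these at 0 throughout. In dKO replicate 3, at 89.4 CPM, Vcam1 was at 6.36 log2 CPM and the other macrophage genes at 2.29 (Hmox1) or below. In TIFAB_KO replicate 3, at 83.8 CPM, Vcam1 was at 5.39, Hmox1 at 4.3 and C1qb at 3.04 log2 CPM. The 5 B lineage genes summed to 12.2 to 16.7, 13 to 16, 22.5 to 25.9 and 13.9 to 20.8 CPM, the miR-146a_KO libraries lying above all others. The 5 T and NK cell genes summed to 172 to 239, 235 to 318, 182 to 215 and 185 to 297 CPM. Nearly all of this was Nkg7, at 7.41 to 8.3 log2 CPM. In every library Cd3e, Cd3g, Cd3d and Klrb1c were at 0.74 log2 CPM or below. Mpo made up most of the granulocyte-monocyte progenitor sum, and Pf4 most of the megakaryocyte sum. These marker sums differed between the groups, and their part in the results below was not tested. In such bulk samples, fewer cells of a type and less RNA per cell cannot be told apart.

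Because miR-146a is absent in miR-146a_KO and dKO, its sequence and the places where initiation factor mRNAs match it are shown first. The mature miR-146a-5p (RefSeq, GRCm38.p6, chr11:43374435-43374456, minus strand) is given 5′ to 3′ with its seed, bases 2 to 8, in capitals.
miR-146a-5p: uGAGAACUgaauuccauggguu
The perfect match to this seed, AGTTCTC on the mRNA strand, was searched in the longest annotated 3′ untranslated region of each gene. It occurred in 4 of the 48 genes (8.33%), against 12.8% of 10800 tested genes and 11.1% of 20909 annotated genes. Their median untranslated regions were 935 bases in the 48 genes and 1198 bases in the tested genes. The genes with a match were Eif4g2, Eif5a2, Eif5b and Eif1a. For the first 3 of these the match is shown on the mRNA strand in capitals, with bases on either side; positions on GRCm38 are those of the match.
Eif4g2 (chr7:111072431-111072437, minus strand): ttacatcctaAGTTCTCaagcagaggc
Eif5a2 (chr3:28797798-28797804, plus strand): actattacatAGTTCTCaagacttttt
Eif5b (chr1:38054729-38054735, plus strand): gggacatgacAGTTCTCtcctcttacc
Such a match is a description of letters, not a shown site of action. The values of these genes stand with their roles below.

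For factors among those with the smallest unadjusted p that have an entry in the promoter table (RefSeq, GRCm38.p6, 38 of the 48 genes matched), the 120 bases before the annotated start are shown on the gene's strand. Entries were missing for Eif1a, Eif2b3, Eif3e, Eif3h, Eif3i, Eif4e3, Eif4ebp1, Eif4ebp3, Eif4g2 and Eif6. Capitals mark matches to the motifs searched on both strands: CCGGAAG (the core bound by ETS factors), AAGATGG (YY1), CACGTG (the E-box bound by MYC), the box CCAAT known for NF-Y, the GC box GGGCGG and the NF-kB consensus.
Eif3d (chr15:77970825-77970944, minus strand): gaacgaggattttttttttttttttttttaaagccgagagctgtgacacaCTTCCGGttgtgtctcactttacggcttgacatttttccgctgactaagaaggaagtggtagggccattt
Eif3k (chr7:28981889-28982008, minus strand): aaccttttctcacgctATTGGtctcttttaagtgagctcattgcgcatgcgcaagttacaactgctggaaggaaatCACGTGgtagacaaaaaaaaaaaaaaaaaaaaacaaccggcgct
Eif4g3 (chr4:137993335-137993454, plus strand): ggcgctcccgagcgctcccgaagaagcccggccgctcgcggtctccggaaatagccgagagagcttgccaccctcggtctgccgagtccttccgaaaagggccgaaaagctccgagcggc
Eif4enif1 (chr11:3202233-3202352, plus strand): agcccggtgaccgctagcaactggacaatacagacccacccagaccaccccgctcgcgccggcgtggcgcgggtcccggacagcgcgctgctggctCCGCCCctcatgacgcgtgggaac
In these stretches Eif3d holds CCGGAAG on the reverse strand, Eif3k a reverse CCAAT and a CACGTG, Eif4enif1 a reverse GGGCGG, and Eif4g3 none of the motifs. Over the full windows of 250 bases before to 50 after the start, CCGGAAG occurred in 39.5% of the 38 genes, against 20.9% of 8972 tested genes and 9.93% of 27025 genes in all. A gene was counted when any of its windows held the motif. CACGTG occurred in 26.3%, 11.9% and 8.09%, AAGATGG in 15.8%, 8.70% and 7.28%, GGGCGG in 78.9%, 68.2% and 38.2%, and CCAAT in 34.2%, 43.2% and 41.1% of the same sets. The NF-kB consensus was in the windows of 0 of the 38 genes, 11.8% of tested genes and 9.55% of all, which says only that these letters are not in these windows.

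Initiation factor RNA was abundant in WT LK cells. Per kb of the longest transcript, the median of the 48 genes was 57.0 CPM, against 7.92 CPM for 11303 tested genes with a length, and 46 of the 48 lay above that value. Eif5a, whose product carries the amino acid hypusine and helps ribosomes through difficult peptide bonds, was highest at 428 CPM per kb. Its relative Eif5a2 was lowest at 1.29, 331-fold lower per kb. The next highest were Eif4b at 259, Eif4g2 at 250, Eif3a at 247 and Eif1 at 243 CPM per kb. By the same measure the 5 subunits of the exchange factor eIF2B lay between 6.42 (Eif2b3) and 27.1 CPM per kb (Eif2b1), and the 4 eIF2 subunit genes between 16.2 (Eif2s3y) and 127 (Eif2s1).

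**Figure D1:**
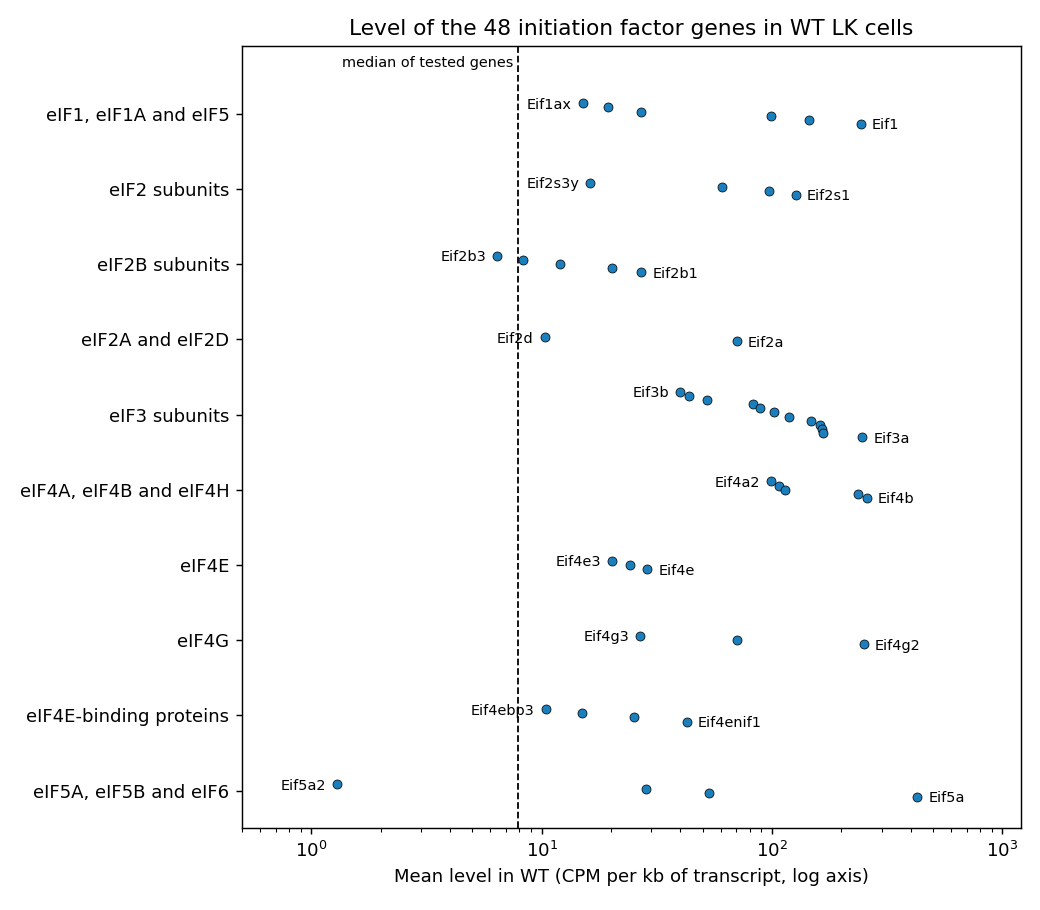
Mean level of each of the 48 genes in the 3 WT libraries (x axis, CPM per kb of the longest transcript, log scale), 1 point per gene, grouped by role on the y axis, with the highest and lowest gene of each role named. Only Eif5a2 and Eif2b3 lie left of the dashed line, the median of tested genes at 7.92 CPM per kb.

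None of the 48 genes differed between groups at an adjusted p under 0.05 in limma, the linear model fitted to all 11867 tested genes, in any of the 6 contrasts or in the F test of any difference among the groups. In TIFAB_KO against WT, 0 genes were called, where 0.0169% of all tested genes were. At an unadjusted p under 0.05, 0 were higher and 0 lower, against 2.99% and 2.12% of all. In miR-146a_KO against WT, 0 were called against 0.0843% of all, and by unadjusted p 1 was higher (Eif4ebp3) and 1 lower (Eif3k), against 7.23% and 2.3% of all. In dKO against WT, 0 were called against 0.0674% of all, and by unadjusted p 1 was higher (Eif4g3) and 4 lower (Eif3e, Eif3h, Eif3k and Eif3d), against 9.7% and 4.36% of all. In dKO against TIFAB_KO, 0 were called against 0.0337% of all, and by unadjusted p 3 were higher (Eif4enif1, Eif4g2 and Eif4e2) and 5 lower (Eif3h, Eif3k, Eif3e, Eif3d and Eif6), against 12.6% and 5.93% of all. Without TIFAB_KO replicate 3 these counts were 1 higher (Eif4a3) and 0 lower, against 4.56% and 3.38% of all, and with dKO replicate 3 left out as well they were 0 and 0, against 4.1% and 3.04%. Without WT replicate 1 they were 0 higher and 1 lower (Eif3e) in dKO against WT, against 4.83% and 2.44% of all, and 0 and 0 in miR-146a_KO against WT, against 3.5% and 1.1%. In dKO against miR-146a_KO, 0 were called against 0.0506% of all, with 0 higher and 0 lower by unadjusted p against 0.868% and 1.06%. The interaction, which asks whether losing both differs from the sum of the single losses on the log2 scale, had 0 called against 0% of all, and 0 higher and 0 lower by unadjusted p against 1.68% and 2.55%. The F test called 0 of the 48 against 0.11% of all, and 3 (Eif3e, Eif3k and Eif3h) had an unadjusted p under 0.05 against 12.8% of all. With voom weights on the recovered reads limma also called 0 of the 48 in each of these 7 comparisons.

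The 95% interval of the log2 fold change lay within 1 of zero for 48 of 48 genes in TIFAB_KO against WT, 45 in miR-146a_KO against WT, 46 in dKO against WT and 45 for the interaction. Within 0.5 it lay for 28, 25, 26 and 10. The median within-group SD of the 48 was 0.20, and 0.29 over all tested genes. The range of the 4 group means had a median of 0.26 and reached 0.75 (Eif4ebp3 and Eif3h being among the widest), and for 17 genes it was smaller than their own within-group SD.

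The median log2 fold change of the 48 genes was -0.02 in TIFAB_KO against WT, where that of all tested genes was -0.01, and 22 were above zero (45.8% against 47.6% of all). It was -0.02 in miR-146a_KO against WT, with all tested genes at 0.09, and 21 were above zero (43.8% against 62.2%). In dKO against WT it was 0.01, with all at 0.08, and 24 were above zero (50% against 60.0%). It was 0.06 in dKO against TIFAB_KO with all at 0.09, and 0.03 in dKO against miR-146a_KO with all at -0.01. These contrasts share groups. Among those that share no library are miR-146a_KO against WT and dKO against TIFAB_KO, which compare cells without and with miR-146a in Tifab-intact and in Tifab-null marrow.

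**Figure D2:**
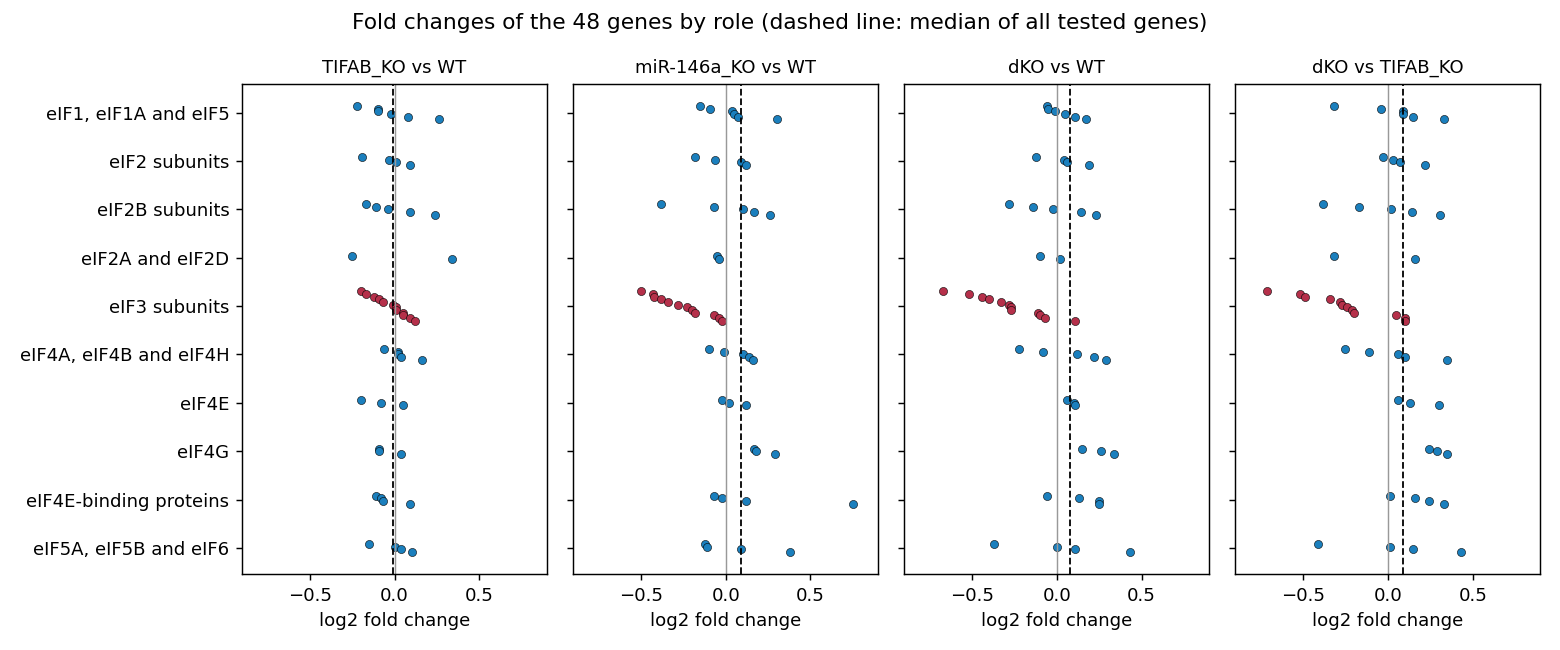
Log2 fold change of each of the 48 genes (x axis, 1 point per gene) by role (y axis) in 4 contrasts, with eIF3 subunits in red and the other roles in blue. The dashed line is the median of all 11867 tested genes, and the 12 eIF3 subunits all lie below zero in miR-146a_KO against WT.

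The eIF3 subunits stood lowest among the roles where miR-146a was absent. eIF3 is the largest initiation factor, a complex of many subunits on the small ribosomal subunit that links it to the mRNA. In miR-146a_KO against WT 12 of 12 measured subunits were below zero, with a median of -0.25, while 37.8% of all tested genes were below zero. In dKO against WT 11 of 12 were below zero (all but Eif3l), with a median of -0.27 and 40.0% of all genes below zero. In dKO against TIFAB_KO 9 of 12 were below zero, with a median of -0.26 and 39.9% of all below. In TIFAB_KO against WT 6 of 12 were below zero with a median of 0.00, and in dKO against miR-146a_KO 7 of 12 with a median of -0.02. None of these subunits passed the adjusted threshold, and the group as a whole carries no test.

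Eif3e, whose product is also known as INT6, had log2 CPM of 8.47, 8.24 and 8.52 (WT), 8.09, 8.26 and 8.37 (TIFAB_KO), 8.11, 8.24 and 8.07 (miR-146a_KO) and 8.01, 7.77, 7.66 and 8.16 (dKO). All 4 dKO libraries lay below all 3 WT libraries, miR-146a_KO also lay at or below the lowest WT library, and TIFAB_KO overlapped the other groups. The share of all tested genes whose groups part in this way is not given. Such statements, here and for the other genes, are therefore descriptions with no test. Fold changes on the log2 scale were -0.52 ± 0.14 (SE, adjusted p = 0.203) in dKO against WT and -0.28 ± 0.15 (SE, adjusted p = 0.57) in miR-146a_KO against WT. It was -0.34 ± 0.14 (SE, adjusted p = 0.216) in dKO against TIFAB_KO, -0.24 ± 0.14 (SE, adjusted p = 1) in dKO against miR-146a_KO and -0.17 ± 0.15 in TIFAB_KO against WT.

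Eif3h, which encodes a subunit with a deubiquitinase-like fold, had log2 CPM of 7.98, 7.35 and 7.41 (WT), 7.23, 7.51 and 8.14 (TIFAB_KO), 7.04, 6.96 and 7.24 (miR-146a_KO) and 6.92, 6.62, 6.49 and 7.63 (dKO). The miR-146a_KO libraries lay below all WT libraries, and 3 dKO libraries did, while dKO replicate 4 reached into the WT range. On the log2 scale it differed by -0.67 ± 0.24 (SE, adjusted p = 0.259) in dKO against WT, -0.71 ± 0.24 (SE, adjusted p = 0.173) in dKO against TIFAB_KO and -0.50 ± 0.26 (SE, adjusted p = 0.555) in miR-146a_KO against WT. TIFAB_KO replicate 3 had the highest value of the 13 libraries.

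Eif3k, one of the smallest subunits, had log2 CPM of 6.90, 6.35 and 6.39 (WT), 6.37, 6.54 and 7.09 (TIFAB_KO), 6.20, 6.09 and 6.07 (miR-146a_KO) and 5.98, 6.13, 6.07 and 6.42 (dKO). All miR-146a_KO libraries lay below all WT and all TIFAB_KO libraries, and dKO replicate 4 again was the one dKO library within the WT range. Its log2 fold change was -0.43 ± 0.19 (SE, adjusted p = 0.521) in miR-146a_KO against WT, -0.40 ± 0.18 (SE, adjusted p = 0.337) in dKO against WT and -0.52 ± 0.18 (SE, adjusted p = 0.179) in dKO against TIFAB_KO. Without WT replicate 1 it was -0.25 in miR-146a_KO against WT and -0.22 in dKO against WT, and without TIFAB_KO replicate 3 it was -0.31 in dKO against TIFAB_KO.

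Eif3d, whose product can itself bind the cap of some mRNAs, was chosen for description after its values were seen. It had log2 CPM of 7.06, 6.64 and 6.70 (WT), 6.52, 6.95 and 7.06 (TIFAB_KO), 6.47, 6.30 and 6.61 (miR-146a_KO) and 6.26, 6.08, 6.08 and 7.02 (dKO). The miR-146a_KO libraries lay below all WT libraries, as did 3 of the 4 dKO libraries, and dKO replicate 4 lay within the WT range, near its top. By limma its log2 fold change was -0.44 ± 0.21 (SE, adjusted p = 0.347) in dKO against WT, -0.49 ± 0.21 (SE, adjusted p = 0.226) in dKO against TIFAB_KO and -0.34 ± 0.22 (SE, adjusted p = 0.626) in miR-146a_KO against WT.

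**Figure D3:**
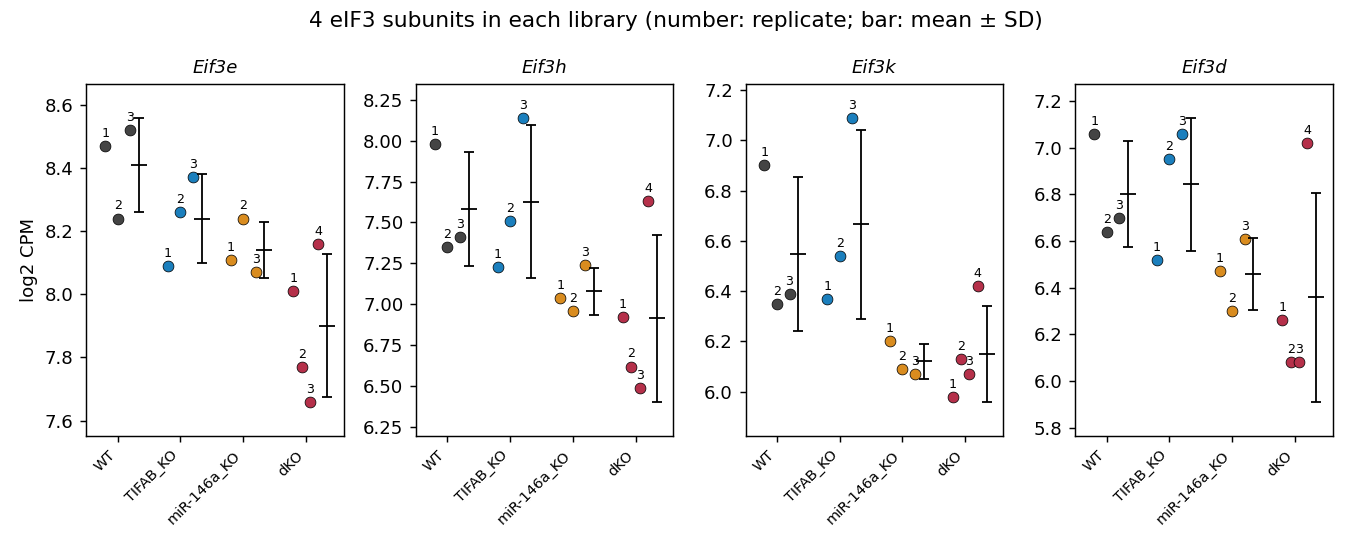
Level (y axis, log2 CPM) of Eif3e, Eif3h, Eif3k and Eif3d in each library, with the replicate number above each point and the group mean ± SD as a bar (n = 3, for dKO n = 4). Replicate 4 is the highest dKO library in all 4 panels, at 8.16, 7.63, 6.42 and 7.02.

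Leaving out dKO replicate 4 brought 3 of these 4 subunits past the threshold in dKO against WT. This library was not unlike the others, with a median correlation of 0.974, against 0.974, 0.962 and 0.951 for dKO replicates 1, 2 and 3. Without dKO replicate 4, limma called 3 of the 48 genes in dKO against WT: Eif3h at -0.90 (adjusted p = 0.0293), Eif3e at -0.60 (adjusted p = 0.0315) and Eif3d at -0.66 (adjusted p = 0.0403). In that fit 2.83% of all tested genes were called. Without it, 2 genes were called in dKO against TIFAB_KO, Eif3h at -0.95 (adjusted p = 0.0311) and Eif3d at -0.71 (adjusted p = 0.0391), where 2.34% of all were. With library quality weights estimated by arrayWeights, limma called Eif3e alone in dKO against WT, at -0.41 (adjusted p = 0.0424), where 6.67% of all were called. Eif3k was not called in any of the 25 settings run, in any of the 3 contrasts looked at (dKO against WT, miR-146a_KO against WT and dKO against TIFAB_KO). The median of the 12 subunits in dKO against WT was -0.43 without dKO replicate 4, and between -0.32 and -0.24 without any other single library. In dKO against TIFAB_KO it was -0.16 without TIFAB_KO replicate 3 and -0.41 without TIFAB_KO replicate 1. With both libraries least like the others left out, TIFAB_KO replicate 3 and dKO replicate 3, it was -0.12, with 8 of 12 subunits below zero and 45.6% of all genes below. In TIFAB_KO against WT the median was -0.14 with 10 of 12 below zero without TIFAB_KO replicate 3. Without WT replicate 1, Eif3h stood at -0.47 and Eif3d at -0.31 in dKO against WT, and at -0.30 and -0.21 in miR-146a_KO against WT.

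The levels of these 4 subunits were also higher in libraries with more reads. These genes were chosen for their group differences, and the groups differed in depth, with median totals of 11.1 M reads for TIFAB_KO, 9.82 for WT, 9.10 for dKO and 8.90 for miR-146a_KO, so the relation is a description with no test. Over the 13 libraries and the log2 of total reads, Pearson's r was 0.66 for Eif3e (Spearman's rho 0.75), 0.78 for Eif3h (rho 0.75), 0.77 for Eif3k (rho 0.73) and 0.75 for Eif3d (rho 0.75). It had a median of 0.46 over the other 8 eIF3 subunits (-0.08 to 0.77), -0.10 over the 36 members outside eIF3 (-0.76 to 0.69) and -0.14 over all tested genes, of which 4.13% had an r at least that of Eif3e. Leaving out the 2 libraries farthest from the median depth, r for Eif3e, Eif3h, Eif3k and Eif3d was 0.67, 0.79, 0.64 and 0.81, and for deviations from the group means it was 0.79, 0.77, 0.75 and 0.71. The deepest libraries were TIFAB_KO replicate 3 at 12.8, WT replicate 1 at 12.0 and dKO replicate 4 at 11.7 M reads, and the median deviation of the 12 subunits from their means over all libraries was 0.34, 0.32 and 0.16 in these 3. In the 3 other dKO libraries it was -0.23, -0.21 and -0.27. With log2 total reads as a covariate the median of the 12 subunits was -0.13 in miR-146a_KO against WT (11 of 12 below zero), -0.20 in dKO against WT (11 of 12) and -0.17 in dKO against TIFAB_KO (9 of 12). In that fit Eif3e was at -0.43, Eif3h at -0.46, Eif3k at -0.27 and Eif3d at -0.29 in dKO against WT, and 0 of the 48 genes were called.

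**Figure D4:**
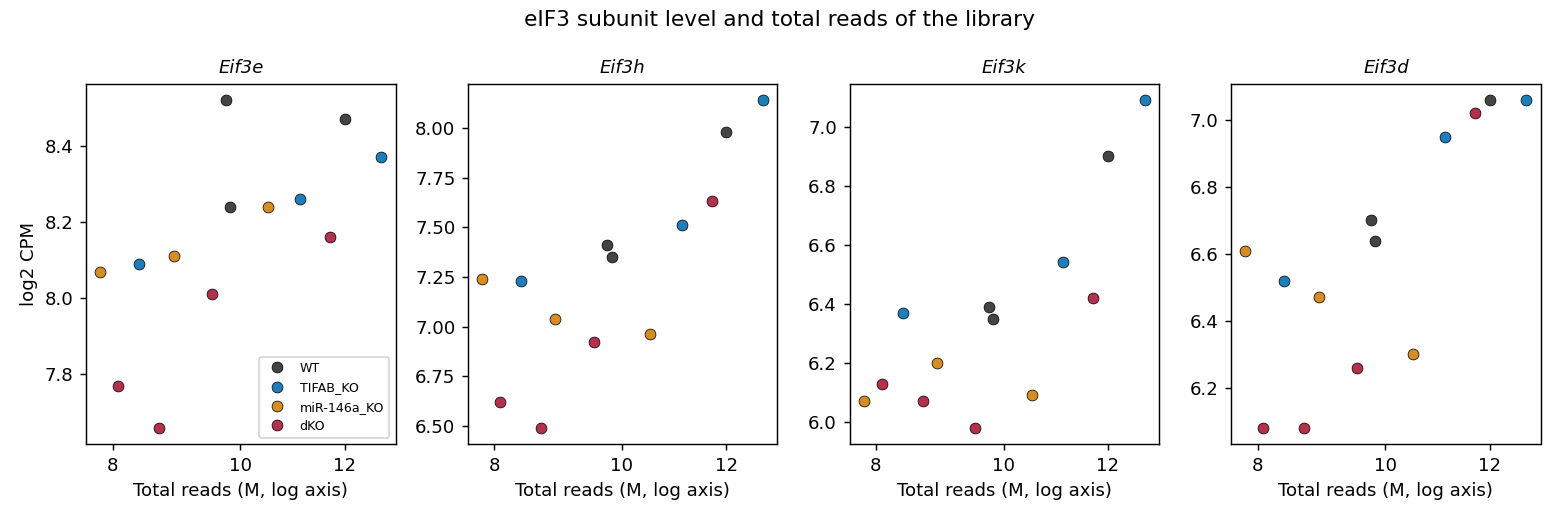
Level (y axis, log2 CPM) of 4 eIF3 subunits against total reads of the library (x axis, M reads, log scale), 1 point per library coloured by group. Levels are higher in deeper libraries, with Pearson's r from 0.66 to 0.78 over the 13 libraries.

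The other 8 eIF3 subunits lay closer to zero in dKO against WT than these 4. Eif3a, the largest core subunit, had log2 CPM of 10.53, 9.98 and 10.41 (WT), 10.08, 10.21 and 10.02 (TIFAB_KO), 10.11, 10.18 and 10.02 (miR-146a_KO) and 10.04, 10.24, 10.00 and 10.54 (dKO), and its groups overlapped throughout. Its log2 fold change was -0.20 ± 0.17 in TIFAB_KO against WT and -0.20 ± 0.17 in miR-146a_KO against WT, while dKO against TIFAB_KO was 0.10 ± 0.16. Eif3b, the lowest of the 12 per kb in WT (39.8 CPM per kb against 247 for Eif3a), had log2 CPM of 6.92, 6.91 and 6.79 (WT), 6.55, 6.91 and 6.80 (TIFAB_KO), 6.84, 6.69 and 6.86 (miR-146a_KO) and 6.73, 6.74, 6.85 and 6.87 (dKO), and no fold change exceeded its SE in dKO against either WT or TIFAB_KO. Eif3l, which pairs with Eif3k in the complex, had log2 CPM of 7.99, 7.48 and 7.63 (WT), 7.71, 7.73 and 7.68 (TIFAB_KO), 7.69, 7.76 and 7.53 (miR-146a_KO) and 7.63, 7.83, 7.96 and 7.82 (dKO). It was the one subunit above zero in dKO against WT, at 0.11 ± 0.14 (SE, adjusted p = 0.741), and its groups overlapped. Eif3c stood at -0.28 ± 0.15 in dKO against WT, Eif3f at -0.11 ± 0.15, Eif3g at -0.27 ± 0.24, Eif3i at -0.27 ± 0.15 and Eif3m at -0.33 ± 0.19. The dKO libraries of Eif3i, a WD-repeat subunit, lay below all WT libraries, as did its miR-146a_KO libraries and those of Eif3m. Eif3d, Eif3e, Eif3h and Eif3l lie on chromosome 15, together with Eif4b of the helicase group.

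**Figure D5:**
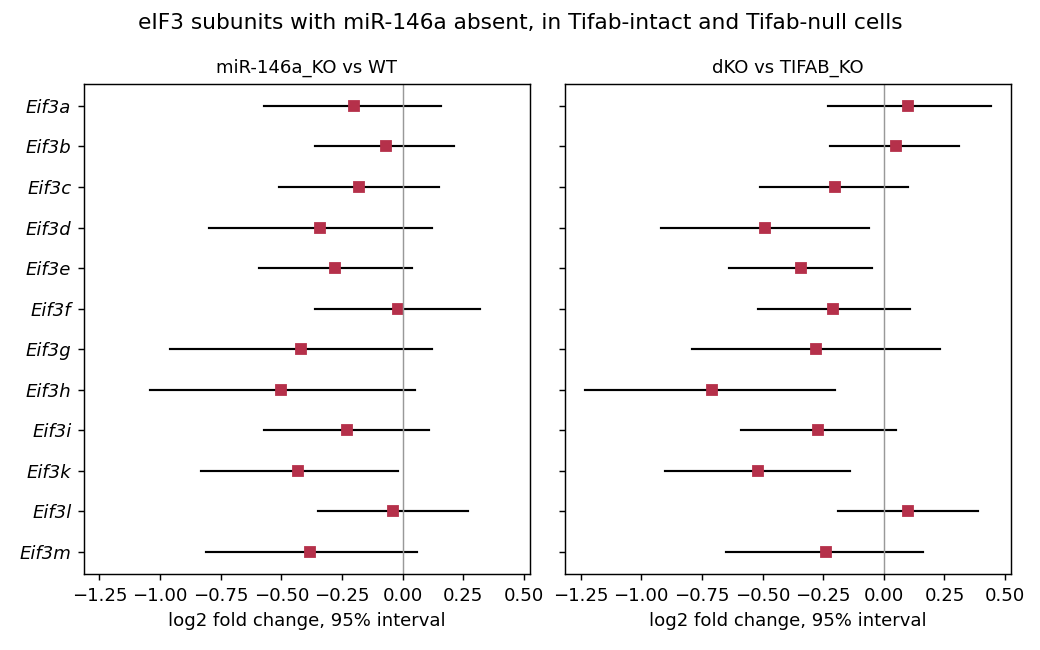
Log2 fold change (x axis, square) with its 95% interval (line) for the 12 eIF3 subunits (y axis) in 2 contrasts that share no library. All 12 lie below zero on the left and 9 on the right, where the intervals of Eif3d, Eif3e, Eif3h and Eif3k leave out zero before adjustment.

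None of the 3 scaffold genes of the eIF4G group passed the adjusted threshold. eIF4G holds eIF4E and the helicase eIF4A together and binds eIF3, and 3 of 3 of its genes were above zero in miR-146a_KO against WT (median 0.18), dKO against WT (0.26) and dKO against TIFAB_KO (0.29). Of all tested genes 62.2%, 60.0% and 60.1% were above zero in these contrasts, with medians of 0.09, 0.08 and 0.09. Eif4g3, encoding the second canonical scaffold eIF4GII, had log2 CPM of 7.55, 7.84 and 7.92 (WT), 8.09, 7.88 and 7.47 (TIFAB_KO), 8.08, 8.12 and 7.98 (miR-146a_KO) and 8.19, 8.25, 8.08 and 7.90 (dKO). Its miR-146a_KO libraries lay above all WT libraries, and dKO replicate 4 was the one dKO library within the WT range. This gave a log2 fold change of 0.34 ± 0.15 (SE, adjusted p = 0.339) in dKO against WT and 0.29 ± 0.16 (SE, adjusted p = 0.577) in miR-146a_KO against WT, and 0.18 in the latter without WT replicate 1. Eif4g2, which carries a miR-146a seed match and encodes a scaffold without the eIF4E-binding part (DAP5), had log2 CPM of 10.77, 11.00 and 11.12 (WT), 11.02, 10.86 and 10.75 (TIFAB_KO), 11.16, 11.18 and 11.06 (miR-146a_KO) and 11.16, 11.49, 11.33 and 10.94 (dKO). Its miR-146a_KO libraries lay above all TIFAB_KO libraries and overlapped WT. Its fitted log2 difference was 0.35 ± 0.16 (SE, adjusted p = 0.25) in dKO against TIFAB_KO, 0.26 ± 0.16 (SE, adjusted p = 0.447) in dKO against WT and 0.17 ± 0.17 (SE, adjusted p = 0.759) in miR-146a_KO against WT. Eif4g1, the main scaffold, had log2 CPM of 8.44, 8.56 and 8.90 (WT), 8.56, 8.61 and 8.47 (TIFAB_KO), 8.89, 8.83 and 8.71 (miR-146a_KO) and 8.85, 8.71, 8.84 and 8.75 (dKO), with both miR-146a-null groups above all TIFAB_KO libraries, at 0.24 ± 0.13 (SE, adjusted p = 0.316) for dKO against TIFAB_KO. In WT, Eif4g2 was 3.54-fold higher per kb than Eif4g1 and Eif4g1 2.63-fold higher per kb than Eif4g3, and the coding sequences of Eif4g1 and Eif4g3 are 55.2% identical.

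None of the 3 cap-binding genes passed the test. Eif4e, the cap-binding protein itself, had log2 CPM of 7.38, 7.22 and 6.91 (WT), 6.88, 7.30 and 7.10 (TIFAB_KO), 7.08, 7.12 and 7.24 (miR-146a_KO) and 7.22, 7.14, 7.08 and 7.45 (dKO), and all groups overlapped. Eif4e2, known as 4EHP, which binds the cap and represses translation, had log2 CPM of 6.24, 6.56 and 6.40 (WT), 6.35, 6.15 and 6.11 (TIFAB_KO), 6.40, 6.68 and 6.49 (miR-146a_KO) and 6.48, 6.43, 6.67 and 6.44 (dKO). All dKO and all miR-146a_KO libraries lay above all TIFAB_KO libraries, and both overlapped WT. limma gave a log2 fold change of 0.30 ± 0.14 (SE, adjusted p = 0.252) in dKO against TIFAB_KO and -0.20 ± 0.15 (SE, adjusted p = 0.999) in TIFAB_KO against WT. Eif4e3, another family member, had log2 CPM of 5.88, 5.63 and 5.51 (WT), 5.60, 5.65 and 5.91 (TIFAB_KO), 5.62, 5.86 and 5.60 (miR-146a_KO) and 5.84, 5.88, 5.90 and 5.52 (dKO) with overlapping groups. Per kb, Eif4e at 28.8 CPM in WT was 1.19-fold above Eif4e2 and 1.42-fold above Eif4e3, and in every library the log2 difference of Eif4e over Eif4e2, not scaled by length, was between 0.41 and 1.15.

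Among the proteins that bind eIF4E, Eif4ebp3 had the widest fold change of the 48 genes and also a low level. It had log2 CPM of 2.36, 3.02 and 3.49 (WT), 3.19, 3.23 and 2.72 (TIFAB_KO), 3.50, 3.87 and 3.74 (miR-146a_KO) and 3.43, 3.72, 3.44 and 2.22 (dKO). All miR-146a_KO libraries lay above all WT libraries, the dKO libraries spread over the ranges of both, and dKO replicate 4 was lowest of the 13. Its log2 fold change came to 0.75 ± 0.35 (SE, adjusted p = 0.522) in miR-146a_KO against WT, -0.50 ± 0.33 (SE, adjusted p = 1) in dKO against miR-146a_KO, and -0.59 ± 0.48 for the interaction. Without WT replicate 1 it was 0.45 in miR-146a_KO against WT, and 0.44 with log2 total reads as a covariate. In dKO against WT it was 0.25 ± 0.33, and between -0.05 and 0.58 when single libraries were left out. Eif4ebp1, the best known mTORC1-regulated repressor of the group, had log2 CPM of 5.09, 4.68 and 4.93 (WT), 5.04, 4.52 and 4.92 (TIFAB_KO), 4.82, 5.05 and 4.78 (miR-146a_KO) and 4.55, 4.99, 5.03 and 4.78 (dKO). Its groups overlapped, and none of its fold changes exceeded its SE in dKO against WT or against TIFAB_KO. Eif4ebp2, the relative prominent in neurons, had log2 CPM of 7.42, 7.02 and 7.10 (WT), 7.21, 7.29 and 6.70 (TIFAB_KO), 7.02, 7.24 and 7.06 (miR-146a_KO) and 7.08, 7.42, 7.40 and 7.32 (dKO). Its groups overlapped too, with 0.20 ± 0.16 in dKO against miR-146a_KO and 0.31 ± 0.23 for the interaction. Eif4enif1, which encodes the shuttling protein 4E-T, had log2 CPM of 7.26, 7.14 and 7.55 (WT), 7.34, 7.32 and 7.06 (TIFAB_KO), 7.35, 7.56 and 7.39 (miR-146a_KO) and 7.53, 7.76, 7.52 and 7.47 (dKO). All dKO libraries lay above all TIFAB_KO libraries, and overlapped WT. The fitted log2 fold change was 0.33 ± 0.14 (SE, adjusted p = 0.219) in dKO against TIFAB_KO and 0.25 ± 0.14 (SE, adjusted p = 0.405) in dKO against WT. Per kb in WT, Eif4enif1 was highest of these genes at 42.9 CPM and Eif4ebp3 lowest at 10.4 CPM.

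In the helicase group, Eif4a1, the main RNA helicase of initiation, had log2 CPM of 9.39, 9.57 and 9.67 (WT), 9.48, 9.54 and 9.67 (TIFAB_KO), 9.74, 9.72 and 9.58 (miR-146a_KO) and 9.64, 9.58, 9.84 and 9.60 (dKO). Eif4a2, its relative with 77.8% identity in coding sequence, had log2 CPM of 8.39, 8.04 and 7.79 (WT), 7.92, 8.47 and 7.89 (TIFAB_KO), 8.06, 7.70 and 8.43 (miR-146a_KO) and 7.98, 7.40, 7.59 and 8.42 (dKO). Eif4a1 was above Eif4a2 in all 13 libraries, by 1.00 to 2.25 on the log2 scale without length, and 2.37-fold per kb in WT. The groups of both overlapped throughout. Eif4a3, which belongs to the exon junction complex rather than to cap recognition, had log2 CPM of 7.42, 7.23 and 7.63 (WT), 7.57, 7.00 and 7.53 (TIFAB_KO), 7.58, 7.69 and 7.30 (miR-146a_KO) and 7.75, 7.93, 7.86 and 7.33 (dKO). Its groups overlapped, and its log2 fold change was 0.35 ± 0.17 (SE, adjusted p = 0.287) in dKO against TIFAB_KO and 0.20 ± 0.17 in dKO against miR-146a_KO. Eif4h, a helper of eIF4A, had log2 CPM of 8.05, 8.28 and 8.23 (WT), 8.40, 8.35 and 8.28 (TIFAB_KO), 8.39, 8.38 and 8.26 (miR-146a_KO) and 8.36, 8.53, 8.36 and 8.35 (dKO). All dKO libraries lay above all WT libraries, with a log2 fold change of 0.22 ± 0.12 (SE, adjusted p = 0.408), and 0.16 ± 0.13 (SE, adjusted p = 0.999) in TIFAB_KO against WT, whose lowest library stood at or above the highest WT library. Eif4b, another helper and highest of the group per kb at 259 CPM in WT, had log2 CPM of 9.95, 10.03 and 9.91 (WT), 10.01, 9.91 and 10.08 (TIFAB_KO), 9.87, 9.83 and 9.87 (miR-146a_KO) and 9.91, 9.79, 9.77 and 10.07 (dKO). Its miR-146a_KO libraries lay below all WT libraries, at -0.10 ± 0.14 (SE, adjusted p = 0.818).

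None of the 6 genes grouped under start codon selection passed the test. For Eif1ad this grouping is not a shown role in that step. Eif1, which keeps the scanning ribosome open until a start codon is met, had log2 CPM of 8.10, 8.28 and 8.59 (WT), 8.47, 7.80 and 8.05 (TIFAB_KO), 8.57, 8.56 and 8.04 (miR-146a_KO) and 8.20, 8.87, 8.76 and 7.90 (dKO), and Eif1b, its relative with 81.3% identical coding sequence, had log2 CPM of 4.37, 4.48 and 4.13 (WT), 4.08, 4.53 and 5.15 (TIFAB_KO), 3.90, 4.60 and 4.61 (miR-146a_KO) and 4.03, 4.06, 4.40 and 4.59 (dKO). All groups of both overlapped, and Eif1 was 12.5-fold above Eif1b per kb in WT. Eif1ad, a protein with an eIF1A-like domain, had log2 CPM of 6.05, 5.98 and 6.30 (WT), 5.92, 6.32 and 6.32 (TIFAB_KO), 6.37, 6.38 and 6.48 (miR-146a_KO) and 6.15, 6.42, 6.27 and 6.28 (dKO). Its miR-146a_KO libraries lay above all WT libraries, at 0.30 ± 0.15 (SE, adjusted p = 0.547), and dKO overlapped WT, at 0.17 ± 0.14 (SE, adjusted p = 0.599). Eif1ax, the X-linked eIF1A gene and the lowest of this role per kb at 15.1 CPM, had log2 CPM of 6.48, 6.14 and 6.23 (WT), 5.61, 6.40 and 6.56 (TIFAB_KO), 5.97, 6.33 and 6.10 (miR-146a_KO) and 6.12, 6.60, 6.13 and 6.50 (dKO) with overlapping groups. Eif1a, which has a seed match, stood at -0.09 ± 0.18 in miR-146a_KO against WT and -0.06 ± 0.17 in dKO against WT. Eif5, which makes eIF2 hydrolyse its GTP at the start codon, ranged from 8.75 to 9.31 log2 CPM over all libraries.

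None of the 4 eIF2 subunit genes passed the test. Eif2s1, the alpha subunit that the stress kinases phosphorylate, had log2 CPM of 8.58, 8.76 and 8.95 (WT), 8.88, 8.59 and 8.84 (TIFAB_KO), 8.91, 8.85 and 8.80 (miR-146a_KO) and 8.83, 8.67, 8.79 and 8.91 (dKO), with overlapping groups. Eif2s3x, the X-linked gene of the gamma subunit, had log2 CPM of 8.42, 8.62 and 8.38 (WT), 8.36, 8.56 and 8.41 (TIFAB_KO), 8.58, 8.61 and 8.61 (miR-146a_KO) and 8.66, 8.66, 8.69 and 8.64 (dKO). The 4 dKO libraries lay above all libraries of the 3 other groups, by less than the test could call, at 0.22 ± 0.12 (SE, adjusted p = 0.319) against TIFAB_KO and 0.19 ± 0.12 (SE, adjusted p = 0.468) against WT. Its Y-linked copy Eif2s3y, with 86.3% identical coding sequence, had log2 CPM of 5.97, 5.35 and 5.67 (WT), 5.51, 5.90 and 5.82 (TIFAB_KO), 5.36, 5.59 and 5.85 (miR-146a_KO) and 5.54, 5.64, 5.93 and 5.75 (dKO). It had reads in all 13 libraries, and Eif2s3x was 6.0-fold higher per kb in WT. Eif2s2, the beta subunit, stood at -0.12 ± 0.16 in dKO against WT, and its miR-146a_KO libraries lay at or below the lowest WT library.

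eIF2B recharges eIF2 with GTP. Eif2b4, its delta subunit, had log2 CPM of 4.06, 3.83 and 4.34 (WT), 4.17, 4.16 and 4.61 (TIFAB_KO), 4.16, 4.33 and 4.24 (miR-146a_KO) and 3.74, 4.04, 4.02 and 3.94 (dKO). All dKO libraries lay below all miR-146a_KO and all TIFAB_KO libraries, and overlapped WT. Its log2 difference was -0.38 ± 0.19 (SE, adjusted p = 0.293) in dKO against TIFAB_KO, -0.31 ± 0.19 (SE, adjusted p = 1) in dKO against miR-146a_KO and 0.24 ± 0.20 (SE, adjusted p = 0.999) in TIFAB_KO against WT. The interaction was -0.55 ± 0.28 (SE, adjusted p = 1), the smallest unadjusted p of the 48 for the interaction. Eif2b1, the alpha subunit, had log2 CPM of 5.86, 5.67 and 5.77 (WT), 5.79, 5.90 and 5.87 (TIFAB_KO), 5.71, 6.01 and 5.88 (miR-146a_KO) and 5.93, 5.87, 6.11 and 6.07 (dKO), and dKO lay above all WT libraries at 0.23 ± 0.14 (SE, adjusted p = 0.449). Eif2b3, the gamma subunit, had log2 CPM of 4.48, 4.46 and 4.83 (WT), 4.08, 4.79 and 4.40 (TIFAB_KO), 4.48, 4.89 and 5.19 (miR-146a_KO) and 4.78, 4.48, 4.77 and 4.88 (dKO), with overlapping groups. Eif2b2 stood at -0.28 ± 0.23 in dKO against WT, and Eif2b5, the catalytic subunit, at -0.02 ± 0.16. The miR-146a_KO libraries of Eif2b2 lay below all WT libraries.

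Eif2a and Eif2d can deliver tRNA to the ribosome without eIF2. Eif2a had log2 CPM of 8.10, 7.93 and 7.71 (WT), 7.69, 7.65 and 7.64 (TIFAB_KO), 7.83, 7.95 and 7.85 (miR-146a_KO) and 7.93, 7.80, 7.75 and 7.78 (dKO). All TIFAB_KO libraries lay below the WT, miR-146a_KO and dKO libraries, at -0.25 ± 0.13 (SE, adjusted p = 0.999) against WT, the smallest unadjusted p among genes below zero in that contrast. Eif2d had log2 CPM of 5.08, 5.11 and 5.29 (WT), 5.47, 5.31 and 5.71 (TIFAB_KO), 5.27, 4.98 and 5.06 (miR-146a_KO) and 5.32, 5.17, 5.00 and 5.21 (dKO). All TIFAB_KO libraries lay above all WT and miR-146a_KO libraries, at 0.34 ± 0.17 (SE, adjusted p = 0.995) against WT, and dKO overlapped TIFAB_KO at -0.32 ± 0.16 (SE, adjusted p = 0.281).

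Of the late-acting factors, Eif5b, the GTPase of subunit joining, had log2 CPM of 8.57, 8.39 and 9.12 (WT), 8.71, 8.52 and 8.41 (TIFAB_KO), 8.57, 8.63 and 8.56 (miR-146a_KO) and 8.62, 8.78, 8.53 and 8.84 (dKO). All groups overlapped, with -0.11 ± 0.17 in miR-146a_KO against WT and 0.26 ± 0.23 for the interaction. It is one of the genes with a seed match. Eif5a had log2 CPM of 9.05, 9.36 and 9.37 (WT), 9.51, 9.09 and 9.48 (TIFAB_KO), 9.48, 9.40 and 9.17 (miR-146a_KO) and 9.25, 9.35, 9.73 and 9.16 (dKO), and Eif5a2 had log2 CPM of 2.36, 3.31 and 2.43 (WT), 3.05, 2.77 and 2.27 (TIFAB_KO), 3.05, 3.25 and 2.95 (miR-146a_KO) and 3.67, 2.62, 3.18 and 3.05 (dKO). Their coding sequences are 72.7% identical, and Eif5a was above Eif5a2 by 5.57 to 7.22 on the log2 scale in every library, lengths not considered. Eif5a2, which also has a seed match, stood at 0.38 ± 0.32 (SE, adjusted p = 0.706) in miR-146a_KO against WT and 0.43 ± 0.30 (SE, adjusted p = 0.441) in dKO against TIFAB_KO, with wide errors at its low level. Eif6, which keeps the large subunit from joining too early, had log2 CPM of 5.54, 5.07 and 5.63 (WT), 5.53, 5.18 and 5.63 (TIFAB_KO), 5.38, 5.53 and 4.98 (miR-146a_KO) and 4.90, 4.90, 5.04 and 5.32 (dKO), a gene chosen for description after its values were seen. It stood at -0.41 ± 0.19 (SE, adjusted p = 0.26) in dKO against TIFAB_KO and -0.37 ± 0.19 (SE, adjusted p = 0.382) in dKO against WT, and its groups overlapped.

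Genes that act around the initiation factors were read from the same fit, and in each list 0 genes were called at an adjusted p under 0.05 in any contrast. The first list held 19 genes with other names, for initiation factors and for proteins that regulate or assist initiation. By unadjusted p, 1 was higher and 1 lower in miR-146a_KO against WT, and 1 higher and 0 lower in dKO against WT. Of all tested genes 7.23% were higher and 2.3% lower in the first of these contrasts, and 9.7% and 4.36% in the second. Paip1, a partner of the poly(A)-binding protein, stood at 0.55 ± 0.21 (SE, adjusted p = 0.278) in dKO against WT, and the helicase gene Ddx3x at -0.48 ± 0.21 (SE, adjusted p = 0.514) in miR-146a_KO against WT. Of 16 tested eIF2 kinases and stress response genes, 2 were higher and 4 lower in dKO against WT by unadjusted p (9.7% and 4.36% of all). Atf4, the transcription factor translated when eIF2 is phosphorylated, had log2 CPM of 8.14, 7.81 and 7.87 (WT), 7.82, 7.63 and 7.69 (TIFAB_KO), 7.79, 7.27 and 7.49 (miR-146a_KO) and 7.44, 7.52, 7.43 and 7.68 (dKO). All dKO libraries of Atf4 lay below all WT libraries, at -0.42 ± 0.14 (SE, adjusted p = 0.235), and its target Ddit3 stood at -0.64 ± 0.25 (SE, adjusted p = 0.278). The list as a whole did not go lower in dKO against WT, with 8 of the 16 genes above zero, 8 below and a median of 0.03. Of its other genes, Asns had means of 5.45 (WT) and 5.5 log2 CPM (dKO), and Psat1 of 8.17 and 8.16.

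Of 17 tested genes for elongation factors, cytosolic or mitochondrial, and related proteins, 0 were higher and 2 lower in dKO against WT by unadjusted p. Here, as for the next 2 lists, the shares of all tested genes were 9.7% and 4.36%. Eef1g, a subunit of the factor that recharges eEF1A, had log2 CPM of 10.50, 10.12 and 10.15 (WT), 10.08, 10.06 and 10.49 (TIFAB_KO), 9.93, 9.49 and 9.96 (miR-146a_KO) and 9.68, 8.71, 8.64 and 10.14 (dKO). As for Eif3d, Eif3h and Eif3k, dKO replicate 4 was the highest dKO library and lay in the WT range, while the 3 others lay below it, and the log2 fold change was -0.96 ± 0.27 (SE, adjusted p = 0.211). Eef1b2, a second subunit of the same factor, stood at -0.57 ± 0.18 (SE, adjusted p = 0.217). Of 9 tested termination and ribosome rescue factors, 2 were higher and 0 lower in dKO against WT by unadjusted p, among them Gspt1, the release factor eRF3a, at 0.40 ± 0.14 (SE, adjusted p = 0.25). Of 20 tested genes of the mTORC1 pathway, 2 were higher and 1 lower, with Tsc1 at 0.43 ± 0.17 (SE, adjusted p = 0.286) and Mtor at 0.34 ± 0.14 (SE, adjusted p = 0.304). In TIFAB_KO against WT, 0 genes of these 5 lists had an unadjusted p under 0.05. In dKO against TIFAB_KO, 12.6% of all tested genes were higher and 5.93% lower by unadjusted p. Higher and lower there were 6 and 0 of the 19 genes with other names, and 1 and 0 of the 16 stress response genes. They were 1 and 4 of the 17 elongation genes, 4 and 0 of the 9 termination genes, and 1 and 2 of the 20 mTORC1 genes. Counts for these lists without TIFAB_KO replicate 3 are not given.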

How the data were processed

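LK cells gave 13 libraries, prepared with an Ovation amplification and a Nextera XT kit, per the labels' protocols. Per the submitters' processing notes, the alignment used TopHat and mm10, counting used featureCounts, and limma followed, with no version named for any of them. The deposited values are log2 CPM (log2 of reads per M reads) of the voom form, from which whole reads were recovered for 100% of values within 0.01 read, so 0.5 read is added to each gene and low folds are understated. Strand use in the counting is not given. Columns of per-sample values not used numbered 0.

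limma 3.58.1 (R 4.3.3) was fitted to the deposited log2 values with 1 mean per group, moderated variances and a trend on mean level, over 11867 genes whose mean reached 0 log2 CPM (residual degrees of freedom 9, prior 9.53). An adjusted p is Benjamini-Hochberg over all 11867 genes within a comparison, and under 0.05 is called. A positive fold change is higher in the group named first. The script was tested on simulated data. Levels per kb used the longest GENCODE M21 transcript (GRCm38, the mm10 build). Relations to depth are descriptions, with no test. Marker and pathway lists, the role groups and the 48 genes were chosen with earlier results of these data known. Named by rule were the 3 genes per direction with the smallest unadjusted p in each of the 6 contrasts, close relatives, and the highest and lowest gene per kb of each role, with up to 4 genes in each other list by smallest unadjusted p against WT. Alternatives were 10 planned settings, 13 single libraries left out and 2 settings added after seeing the data: both libraries least like the others left out, and log2 total reads as covariate.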

Additional observations from a re-analysis of the deposited data

Results flagged for a closer look

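In groups of 4 libraries a library was checked for standing apart from the 3 others, which applied to dKO only and to each of the 48 genes. Eif1a was at 8.44 log2 CPM in dKO replicate 4, with the others between 7.94 and 8.01. Eif4e3 was at 5.52 log2 CPM in dKO replicate 4, with the others between 5.84 and 5.90. Eif4h was at 8.53 log2 CPM in dKO replicate 2, with the others at 8.35 to 8.36. These are 3 of 48 genes, 2 of them through dKO replicate 4, and chance alone marks about 1 in 20 groups.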

How the results depend on the processing

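Counts of called genes stayed at 0 of 48 in all comparisons and settings run except those that follow, for which the cause was not tested. In dKO against WT the count was 1 with arrayWeights quality weights, 2 with a replicate block and 0 to 3 when single libraries were left out, the 3 being reached without dKO replicate 4. In dKO against TIFAB_KO it was 1 with a replicate block and 0 to 2 with single libraries left out. With the replicate block, Eif3e was called at -0.60 (adjusted p = 0.048) and Eif3h at -0.90 (adjusted p = 0.0397) in dKO against WT, and Eif3h at -0.95 (adjusted p = 0.0449) in dKO against TIFAB_KO, among 281 and 146 of 11867 genes called. In that fit dKO replicate 4 is alone in its block and so adds nothing to the contrasts. Same-numbered libraries of different groups had deviations correlated at -0.20 to 0.23 over 18 pairs, others at -0.20 to 0.27, so no pairing by number was seen. With 3 or 4 libraries per group these ranges cannot settle it, and a shared batch was not tested. The median log2 fold change of the 48 genes in miR-146a_KO against WT was -0.10 with median centring, -0.08 with quantile normalization, and -0.04 to 0.05 with single libraries left out, highest without WT replicate 1. It was -0.06 in dKO against WT with median centring and -0.04 in dKO against TIFAB_KO with quantile normalization. None of the 36 fold changes named by the rule changed sign in any setting run. Leaving out a single library moved 21 of them by over 1.5 times, WT replicate 1 moving 11, WT replicate 2 6, TIFAB_KO replicate 3 5 and dKO replicate 4 4. The fit of only the groups compared gives no value for the interaction or the F test. The number of libraries limits the precision. Eif5a2 had 49 to 121 reads per library and a within-group SD of 0.41, and Eif4ebp3 54 to 154 reads and 0.5. The part of depth in that spread was not tested.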
